A study of Arabidopsis thaliana with 4 samples.

Results

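Transcripts of 8 antioxidant and iron-storage genes were followed in rosette leaves of an Arabidopsis thaliana line carrying an antisense construct against the alternative oxidase AOX1a and in wild-type leaves. The genes were chosen by name, each through 1 probe set (the group of short probes that reads a transcript on the array), at a time when earlier results of these data were known. They are CAT1 (AT1G20630, 259517_at), CAT2 (AT4G35090, 253174_at) and CAT3 (AT1G20620, 259544_at) for catalases, and APX2 (AT3G09640, 258695_at) for an ascorbate peroxidase. CSD1 (AT1G08830, 264809_at), CSD2 (AT2G28190, 266165_at) and FSD1 (AT4G25100, 254098_at) encode superoxide dismutases, and FER1 (AT5G01600, 251109_at) encodes a ferritin. The pairing of probe sets with loci came with that choice, since the deposited files name no genes, and it was not checked against an array annotation here. All 8 were among the 22810 probe sets of the deposited table, and 7 passed a filter that left 13648 for testing.

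The antisense plants were of the line AS12, a Columbia (Col-0) transformant that expresses AOX1a (At3g22370) in antisense from the 35S CaMV promoter, a viral promoter active in most plant cells. The other plants are labelled wild type, and the labels do not name their accession. AOX1a encodes a mitochondrial oxidase that passes electrons to oxygen outside the cytochrome pathway. All plants grew in unfertilised soil-less mix, with 14 h of light a day at 350 µmol photons per m2 and s and a temperature of 23 °C. Leaves were harvested late in the morning at 21 days after sowing. Each genotype was read on 2 arrays: RNA of 9 plants (antisense 1) and 8 plants (antisense 2) was pooled for the antisense line, and RNA of 7 plants (wild type 1) and 9 plants (wild type 2) for the wild type. The antisense genotype is represented by 1 transformed line. The AOX1a transcript itself and markers of leaf cells are not analysed here: further probe sets could not be paired with genes. The genotype labels and the tissue were therefore not checked against transcripts.

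Leaf cells form reactive oxygen species in chloroplasts, mitochondria and peroxisomes. Superoxide dismutases convert superoxide to hydrogen peroxide. Catalases of the peroxisome and ascorbate peroxidases then remove the peroxide. Ferritin stores iron in the plastid in a form that does not react with peroxide. CSD1 (cytosol) and CSD2 (chloroplast) contain copper and zinc. FSD1, which contains iron, is known to replace this pair according to copper supply, through the microRNA miR398 and the transcription factor SPL7. FER1 is known to rise with iron and with oxidative treatments.

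The 4 arrays did not group by genotype over the whole array. Of the tested probe sets, 49.8% had wild type 1 and antisense 2 together on one side of wild type 2 and antisense 1, against 26.8% with the 2 antisense arrays on one side of the 2 wild-type arrays. Differences between the genotypes are given as log2 signal in the antisense line minus wild type, with the adjusted p of limma (Benjamini-Hochberg over 13648 probe sets). At a threshold of 0.05, limma called 0 of the 7 tested genes, against 0 higher and 0 lower probe sets (0%) on the whole array. At an unadjusted p under 0.05 limma gave 1 lower and 0 higher among the 7 genes, against 1.09% lower and 1.69% higher among all tested. With 2 arrays per genotype, an exact permutation test of a single gene cannot give a two-sided p below 0.333.

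FER1 was lower in the antisense line on every array. Its signal was 10394 and 11358 on the antisense arrays and 13719 and 15513 on the wild-type arrays. The genotypes did not overlap, and each antisense array lay at least 1.21-fold and at most 1.49-fold below a wild-type array. The means were 10876 ± 681 in antisense leaves and 14616 ± 1269 in wild-type leaves (SD, n = 2 arrays each). The log2 difference was -0.43 (SE 0.14, 95% interval -0.77 to -0.08), a signal 1.34-fold lower. FER1 was the 1 gene of the 7 with an unadjusted p under 0.05 by limma (0.0226), which ranked 169 of 13648, and its adjusted p was 0.99995. Without the filter on dim probe sets its unadjusted p was 0.067. Among all tested probe sets, 4.06% had a more negative difference than FER1, and 277 (2.03%) lay lower in the antisense line by a wider gap between the genotypes. After quantile normalization FER1 read 11106 and 11184 on the antisense arrays against 12424 and 15758 on the wild-type arrays. The genotypes still did not overlap, but the least gap was 1.11-fold, and 5.12% of tested probe sets had a wider one. After cyclic loess normalization the difference was -0.36 and the least gap 1.15-fold, with a wider one in 2.89%. As deposited, FER1 therefore differed by more than the spread between the 2 arrays of either genotype and did not pass the test over the whole array.

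CAT2, the main catalase of photosynthetic leaf cells, was also lower on both antisense arrays, by a small margin. It read 20595 and 20393 on the antisense arrays and 22149 and 22728 on the wild-type arrays. The arrays within a genotype lay close together, and the genotypes did not overlap. Among all tested probe sets, 1030 (7.55%) lay lower in the antisense line by a wider gap than CAT2. The means were 20494 ± 143 in antisense leaves and 22439 ± 410 in wild-type leaves (SD, n = 2 each), a log2 difference of -0.13 (95% interval -0.41 to 0.15, limma adjusted p = 0.99995). After quantile normalization the difference was -0.03 and after cyclic loess -0.05, and under both the genotypes overlapped.

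CAT3, a catalase known for expression in vascular tissue and ageing leaves, differed between the genotypes by less than between the 2 antisense arrays. CAT3 read 19420 and 15502 on the antisense arrays and 17185 and 17470 on the wild-type arrays. Both wild-type values fell between the 2 antisense values, which differed 1.25-fold. The log2 difference was 0.00 (95% interval -0.36 to 0.37), with 0.09 after quantile normalization and 0.07 after cyclic loess. CAT1, a catalase known mainly from pollen and seeds, read 884 and 999 on the antisense arrays and 827 and 995 on the wild-type arrays. The genotypes overlapped, and the log2 difference was 0.05 (95% interval -0.43 to 0.53). CAT1 and CAT3 are neighbours on their chromosome, with 0 genes between them in the RefSeq annotation, and their differences between antisense 1 and antisense 2 ran in opposite directions (log2 -0.18 for CAT1 and 0.33 for CAT3). Between wild type 1 and wild type 2 the log2 difference was -0.27 for CAT1 and -0.02 for CAT3. Of tested probe sets, 66.0% differed more than CAT1 between the antisense arrays and 43.0% more than CAT3. Between the wild-type arrays these shares were 42.0% and 94.3%.

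**Figure D1:**
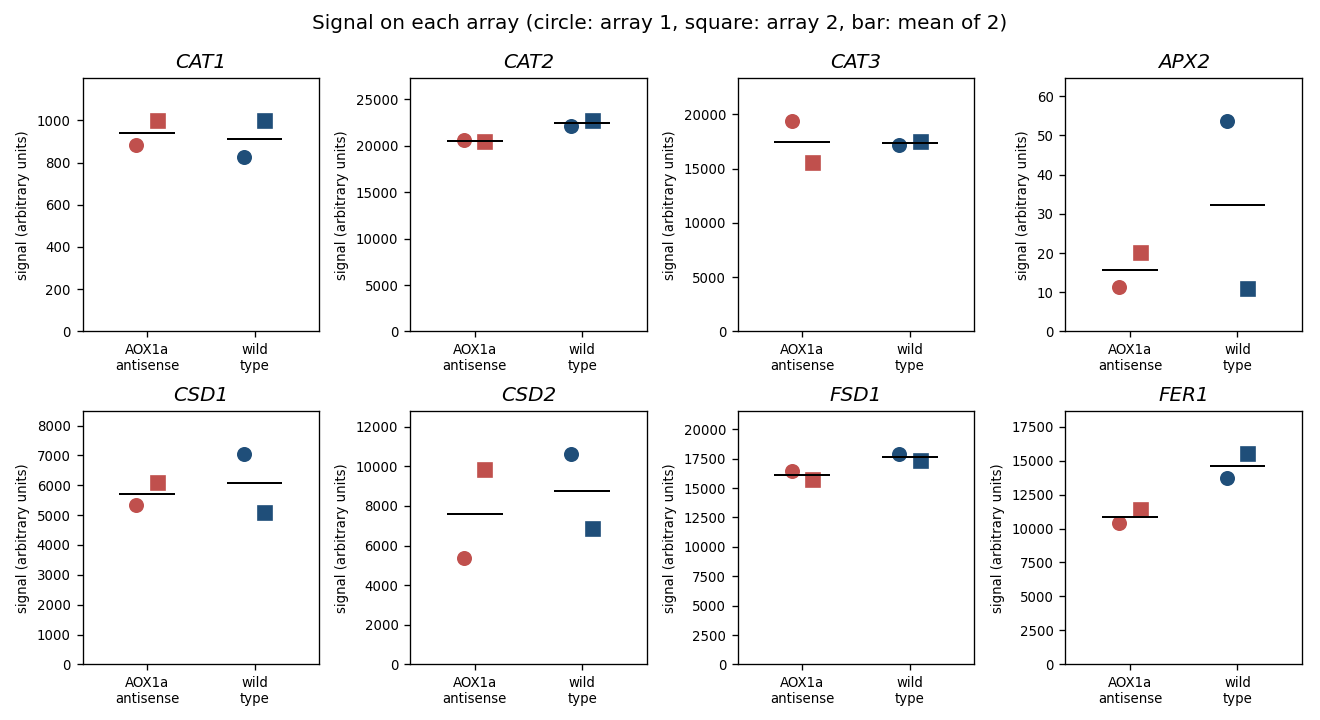
Signal of each of the 8 genes (arbitrary units, linear axis from 0) in AOX1a antisense leaves (left, red) and wild-type leaves (right, blue), where the circle is array 1, the square array 2 and the bar the mean of the 2. The genotypes are apart for CAT2, FSD1 and FER1, by the most for FER1 (10394 and 11358 against 13719 and 15513).

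FSD1, the iron superoxide dismutase, was lower on both antisense arrays by about the same margin as CAT2. It read 16489 and 15718 on the antisense arrays and 17939 and 17337 on the wild-type arrays. The genotypes did not overlap, although the closest antisense and wild-type arrays were only 1.05-fold apart. A wider gap on the lower side was found for 1335 tested probe sets (9.78%). The means were 16103 ± 545 in antisense leaves and 17638 ± 426 in wild-type leaves (SD, n = 2 each), a log2 difference of -0.13 (95% interval -0.43 to 0.17). After quantile normalization the difference was -0.02 and after cyclic loess -0.06, with overlap under both.

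CSD1 and CSD2, the copper and zinc superoxide dismutases, varied more between arrays of one genotype than between the genotypes. CSD2 read 5373 and 9837 on the antisense arrays and 10646 and 6861 on the wild-type arrays. It was high on antisense 2 and wild type 1 and low on antisense 1 and wild type 2, so the genotypes overlapped. The 2 antisense arrays differed 1.83-fold and the 2 wild-type arrays 1.55-fold. A wider difference between arrays of one genotype was found in 6.79% of tested probe sets for the antisense line and 9.88% for the wild type. The log2 difference between the genotypes was -0.23 (95% interval -1.04 to 0.58), the widest interval among the 7 tested genes. It was 0.20 without antisense 1, 0.08 without wild type 1, -0.55 without wild type 2 and -0.67 without antisense 2. CSD1 read 5353 and 6075 on the antisense arrays and 7062 and 5087 on the wild-type arrays. The same 2 arrays were high for CSD1, with a smaller range, and its log2 difference was -0.07 (95% interval -0.56 to 0.42). It was 0.02 without antisense 1, 0.16 without wild type 1, -0.31 without wild type 2 and -0.16 without antisense 2. A wider difference than that of CSD1 was found in 65.1% of tested probe sets between the antisense arrays and 18.7% between the wild-type arrays.

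The arrays antisense 2 and wild type 1 were together above antisense 1 and wild type 2 for CSD1 (1.26-fold in the mean of log2 signals) and CSD2 (1.69-fold). For FSD1 the same ratio was 0.993. Both arrays lay above the other 2 for 2 of the 7 tested genes and for 21.9% of all tested probe sets. In either direction the split was found for 3 of the 7 and for 49.8% of all tested. The third gene was CAT3, with both arrays below the other 2 (ratio 0.886). The pools of antisense 2 and wild type 1 held 8 and 7 plants, against 9 and 9. The 6 ratios of 3′ to 5′ signal of control transcripts, which rise with RNA degradation, did not follow one order of the arrays. For 3 of them (both ubiquitin designs and the second actin design) antisense 2 and wild type 1 were above the other arrays, as with the first ubiquitin design at 3.82 and 4.68, against 3.45 on antisense 1 and 3.16 on wild type 2. The first actin and GAPDH designs were highest on antisense 1 (5.40 and 1.72), and the second GAPDH design was lowest on wild type 1 (1.08). The part of pool size or RNA quality in the CSD1 and CSD2 signals was not tested.

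**Figure D2:**
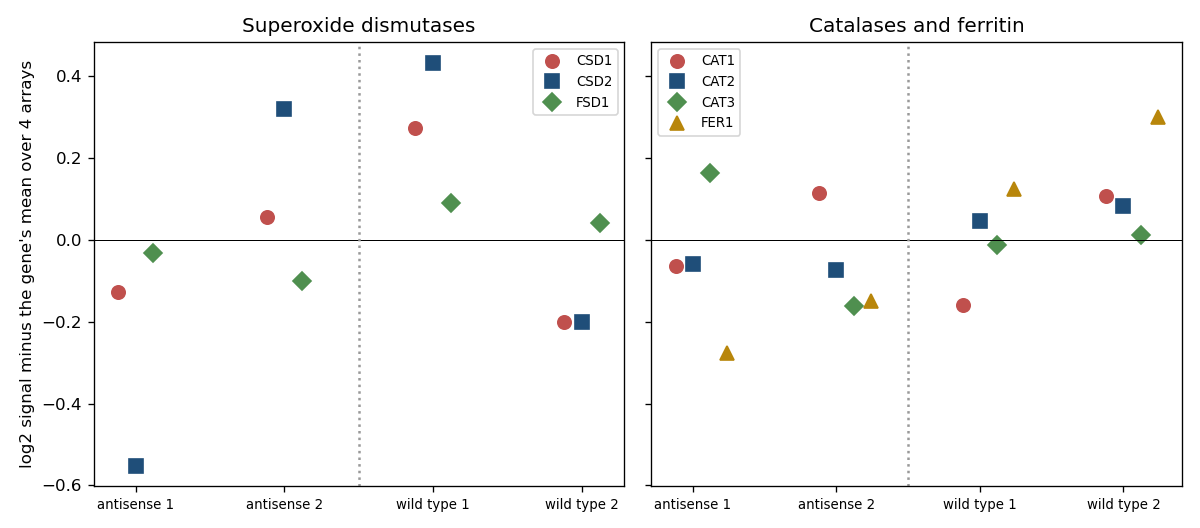
Log2 signal on each array minus the gene's own mean over the 4 arrays, for the superoxide dismutases (left panel) and for the catalases and FER1 (right panel), with antisense arrays left of the dotted line and wild-type arrays right of it. CSD2 swings between -0.55 (antisense 1) and 0.43 (wild type 1), while FER1 is below 0 on both antisense arrays and above 0 on both wild-type arrays.

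APX2, a cytosolic ascorbate peroxidase known for its induction by excess light and heat, was dim on all arrays. It read 11.3 and 19.9 on the antisense arrays and 53.8 and 10.8 on the wild-type arrays. A single array, wild type 1, was higher than the rest, and the genotypes overlapped. All 4 values lay below 97.4, the signal at which the filter stood, so APX2 was not among the tested genes. In the fit without the filter its log2 difference was -0.68 with a 95% interval of -3.01 to 1.64 (limma adjusted p = 1), and without wild type 1 it was 0.47. Detection calls were not used here, so whether these signals stood above background is not known.

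Over the 7 tested genes, the log2 difference was below 0 for 5 and above 0 for 2, with a median of -0.13, against a median of -0.03 over all tested probe sets, of which 56.0% were below 0. The genotypes did not overlap for 3 of the 7 (CAT2, FSD1 and FER1), all lower in the antisense line, against 16.1% of all tested probe sets that were lower without overlap and 10.7% that were higher without overlap. With a limit of 1.5-fold between every antisense array and every wild-type array, 0 of the 7 were lower or higher, against 0.169% lower and 0.528% higher among all tested. Of the 7 genes, 6 (all except CAT1) were among the brightest 5% of tested probe sets. These 682 bright probe sets had a median difference of -0.07 and were lower without overlap in 21.4%. After quantile normalization that median was 0.00 and the share 10.6%, and FER1 was the 1 gene of the 7 without overlap. Over all tested probe sets, 16.1% were lower without overlap under this scaling. After cyclic loess the median of the bright probe sets was -0.01 and their share 12.2%, against 13.8% over all tested probe sets. FER1 was again the 1 gene of the 7 without overlap. The control probe sets for plant housekeeping transcripts had median differences of -0.12 (actin, 6 probe sets), -0.15 (GAPDH, 5) and -0.04 (ubiquitin, 5) in the deposited signals.

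**Figure D3:**
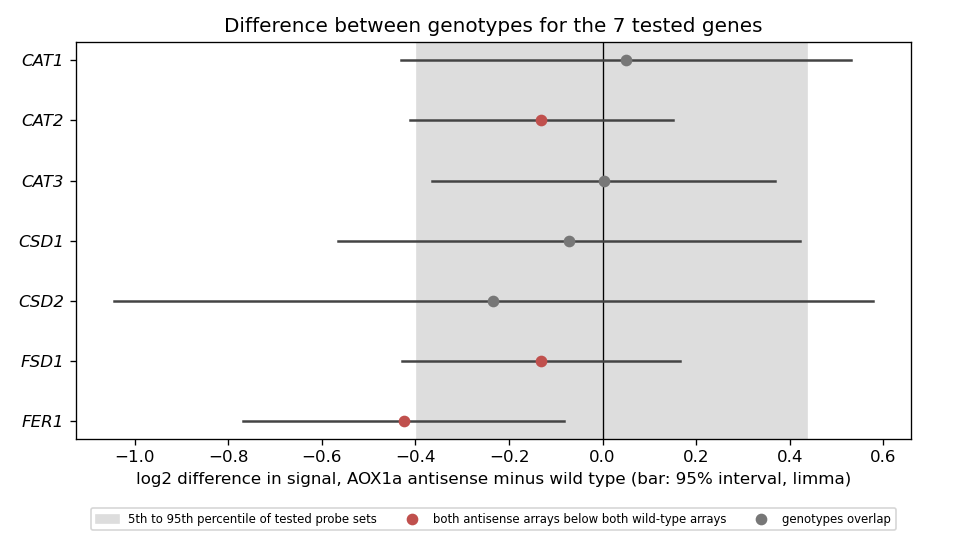
Log2 difference in signal, AOX1a antisense minus wild type, for the 7 tested genes, with the 95% interval of limma as bars and the range between the 5th and 95th percentile of all tested probe sets in grey (-0.40 to 0.44). Red points are genes whose antisense arrays both lie below both wild-type arrays. The interval of FER1 (-0.77 to -0.08) lies below 0 and the other 6 intervals span it. The intervals are not adjusted for the number of probe sets tested.

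The intervals give the range of differences compatible with these arrays for each gene taken alone. They come from the fit with the filter and are not adjusted for the number of probe sets tested. For CAT2, CAT3 and FSD1 they ran from at most 1.35-fold lower to at most 1.29-fold higher in the antisense line. For CAT1 they ran from 1.35-fold lower to 1.44-fold higher, and for CSD1 from 1.48-fold lower to 1.34-fold higher. For CSD2 the interval ran from 2.06-fold lower to 1.49-fold higher, and for FER1 from 1.70-fold lower to 1.06-fold lower. Without the filter the unadjusted limma p of FER1 was 0.067, so its interval in that fit includes no difference. For CAT2 the unadjusted limma p was 0.545 without the filter and 0.301 with it, and for FSD1 0.522 and 0.324. For CAT3 these were 0.993 and 0.990. The log2 differences were the same in both fits, so the intervals of CAT2, CAT3 and FSD1 were wider without the filter. The intervals of CAT2, CAT3, FSD1 and FER1 were narrower than those of at least 98.1% of tested probe sets. These are very bright probe sets, where array signal can rise less than transcript level, and whether this held here was not tested.

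Over the 4 arrays, the course of each gene was set against the others by the root mean square difference of centred log2 signals, a description over 4 points. CAT2 and FSD1 were nearest to each other (0.036 log2 units), and 150 tested probe sets were nearer to CAT2 and 110 nearer to FSD1. The gene nearest to CSD2 was CSD1 (0.26), with 1666 tested probe sets nearer, and the gene nearest to FER1 was CAT2 (0.16), with 1302 nearer. The 2 nearest of all tested probe sets, which have no gene name here, were at 0.036 and 0.037 from CSD2, 0.0058 and 0.0067 from FSD1, and 0.017 and 0.026 from FER1. With 4 arrays, many probe sets followed a similar course by this measure.

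**Figure D4:**
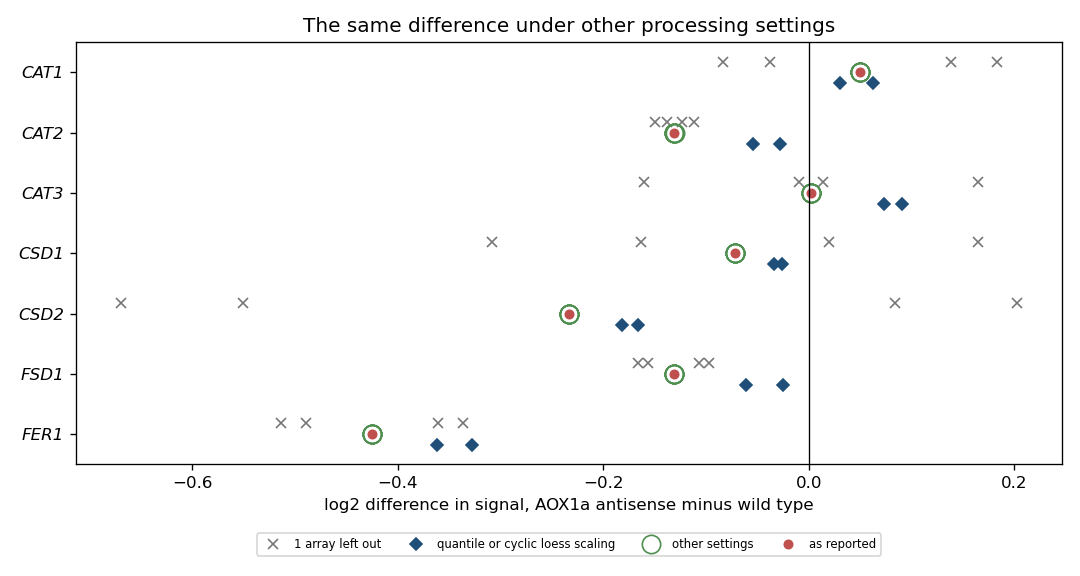
Log2 difference, AOX1a antisense minus wild type, for the 7 tested genes as reported (red), under quantile or cyclic loess scaling (blue diamonds), with 1 array left out (crosses) and under the other settings (green rings, at the reported value or within 0.01 of it). FER1 stays between -0.51 and -0.33, while CAT1, CAT3, CSD1 and CSD2 lie on both sides of 0 when 1 array is left out.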

How the data were processed

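Leaf RNA of 4 pools of plants was read on 1-colour Affymetrix arrays. Per the labels, the authors computed signals with MicroArray Suite 5.0. The deposited values are linear intensity per probe set, and their trimmed mean (2% off each end) was 500.05 on every array, so they were not scaled again. Global scaling hides a shift of all transcripts together. Values were log2-transformed. The 64 control probe sets and the 40% of the other 22746 with the lowest mean log2 signal were left out. The genotypes were compared with limma 3.58.1 in R 4.3.3 (eBayes with intensity trend, 2 residual and 4.25 prior degrees of freedom). The same fit was run on simulated data with noise independent for each probe set and array. That simulation held no split like that of wild type 1 and antisense 2 from the other arrays, and its outcome is not used here. The number of arrays limits precision. Replicates are pools of plants from one growth experiment, so p-values measure the spread between such pools. All 8 genes were named. The genes, lists and tests were chosen with earlier results of these data known. Planned lists of further antioxidant, copper and iron genes, AOX1a and tissue markers could not be matched to probe sets. All 8 loci carried the same symbols in RefSeq (TAIR10.1). Sequences and coordinates are not given. Equal array numbers were not taken as pairs: nothing in the labels ties them, and deviations of same-numbered arrays correlated at -0.42 across tested probe sets. The alternatives were a replicate block, quantile and cyclic loess normalization, adding 8.1 (the overall 10th percentile) to the signal before log2, no filter, eBayes without a trend, no _s_at or _x_at probe sets, and leaving out each array.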

Additional observations from a re-analysis of the deposited data

How the results depend on the processing

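None of the 7 tested genes passed limma's adjusted threshold under any setting, the replicate block (0 genes, 0 probe sets in all) included, and the lowest adjusted p of FER1 was 0.68, without antisense 2. CAT2, FSD1, FER1 and, unless an array was left out, the other 4 kept their direction. The 3 genes without overlap became 1, FER1, with either quantile or cyclic loess scaling. Over all tested probe sets, 16.1% (quantile) and 13.8% (cyclic loess) were then lower without overlap. With 1 array left out the count was 4 to 6, where fewer pairs have to be met. The share over all tested probe sets was not counted for those fits, so this count is not read as a result about the genes. Over all tested probe sets, the count of 0 calls became 1 under quantile normalization, cyclic loess and without _s_at and _x_at probe sets, 2 with the offset, and 0 to 5 with 1 array left out. A crossed pairing as a block (wild type 1 with antisense 2), added because same-numbered arrays correlated negatively, called 44 probe sets and 0 of the 7 genes. This block was not planned and was chosen from the same values, so its count cannot be compared with those of the planned settings. Leaving out 1 array moved the log2 difference of CAT1 between -0.083 and 0.18, of CAT3 between -0.16 and 0.16, of CSD1 between -0.31 and 0.16 and of CSD2 between -0.67 and 0.20, each across 0. The differences that crossed 0 were -0.083 (CAT1), -0.0099 (CAT3), 0.16 (CSD1) and 0.084 (CSD2) without wild type 1, -0.16 (CAT3), 0.020 (CSD1) and 0.20 (CSD2) without antisense 1, and -0.038 (CAT1) without antisense 2. The lone array left is assumed to vary like the others. The cause of these shifts was not tested beyond the arrays left out. APX2 had a fitted value only without the filter.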
